A study of Mus musculus with 32 samples.

Results

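The subject of this report is the net state that wild-type dendritic cells reached after 6 h of lipopolysaccharide (LPS), the bacterial cell wall component that activates Toll-like receptor 4. Of the 32 libraries of the series, 8 were used, chosen by their labels: 4 of WT cells harvested with no LPS, called 0 h, and 4 of WT cells exposed to LPS for 6 h. The series compared WT cells with cells that lack the immunoproteasome subunits LMP7 and MECL1 (dKO) at 0, 1, 2 and 6 h of LPS, with 4 libraries for each genotype and time. The dKO libraries were not used, except to widen 1 alternative fit, and the WT libraries at 1 and 2 h served to place the 6 h state in time.

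All 8 libraries came from bone marrow of femur and tibia of C57BL/6 mice of the Wild Type genotype, cultured with GM-CSF, the growth factor that turns marrow progenitors into dendritic cells and macrophage-like cells. LPS at 1 µg/mL was the only difference the labels give between the groups, and the control cells were harvested on the same day of culture. The labels name no sort or purification, so each library holds whatever cells such a dish contains, and they do not say whether the 4 libraries of a group came from separate mice or cultures. Each p-value is therefore set against library-to-library spread alone, and that spread may be technical.

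Dendritic cells take up material from tissue, digest it and show the resulting peptides to T cells on MHC molecules. In the immature state they are efficient at uptake, and maturation, which LPS can trigger, turns them into cells that migrate to lymph nodes, carry costimulatory molecules and secrete cytokines. The LPS signal runs through NF-κB, which drives cytokine and chemokine genes, and through interferon β, whose receptor switches on a large set of antiviral genes.

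Values are RPKM, the number of reads per kilobase of gene scaled to the reads of the library, so that each value is a share of the library. Depth was 1.48 to 1.87 Gb of sequence aligned to genes per library and did not separate the groups (exact two-sided permutation p = 0.657, 70 splits). On log2 values the Pearson correlation across genes was 0.991 to 0.994 between libraries of the same group and 0.802 to 0.816 between groups, and all 8 libraries lay nearest to the WT mean of their own time. Changes are given as the 6 h value minus the 0 h value on the scale of log2(RPKM + 0.5), which understates the change of low genes, and ± is the SD of 4 libraries throughout.

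After 6 h fewer genes held more of the transcriptome than at 0 h, and part of this was in place by 2 h, as given with the earlier times. The 10 most abundant genes held 13.9% ± 0.373 of the summed RPKM at 0 h and 20.2% ± 0.819 at 6 h, with no overlap between the groups (exact two-sided permutation p = 0.0286, the smallest that 70 splits can give). The number of genes that together hold 50% of the summed RPKM fell from 380 ± 10.4 to 198 ± 4.32 (exact permutation p = 0.0286). Genes at 1 RPKM or more numbered 10675 to 10701 at 0 h and 9581 to 9623 at 6 h (exact permutation p = 0.0286), and with the scaling described next the means were 10411 and 9964.5.

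The scaling between libraries set the direction of many genes, so counts and the main changes are given both ways. With RPKM as deposited, 10727 genes were tested, those at 1 RPKM or more in at least 4 of the 8 libraries. Of them 2051 (19.1%) were called higher at 6 h and 7600 (70.8%) lower, 9651 (90.0%) in all, at an adjusted p below 0.05 in limma. In 1917 genes (17.9%) all 4 values at 6 h lay above all 4 at 0 h, and in 7292 (68.0%) they lay below. By size, 916 (8.54%) were at least 2-fold higher and 3732 (34.8%) at least 2-fold lower. The median change over all tested genes was -0.66. After median-of-ratios scaling, which sets the typical gene to no change, the median was -0.01, and 4419 genes (41.2%) were called higher and 4449 (41.5%) lower. Quantile normalization, which gives all libraries the same distribution of values, gave 3944 higher and 4727 lower. Median-of-ratios scaling moved the change of a gene up by a median of 0.67, and by 0.26 to 0.71 over all tested genes, least for low ones. All 2051 genes called higher without scaling were also called higher with it, and all 4449 called lower with scaling were also called lower without it. A further 1369 genes were called lower without scaling and higher with it, and their direction in amount per cell cannot be told from these tables. Counts of list members called are to be read against these shares of all tested genes. In what follows "with scaling" means median-of-ratios scaling, and where a pair of values is given the first is without it.

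**Figure D1:**
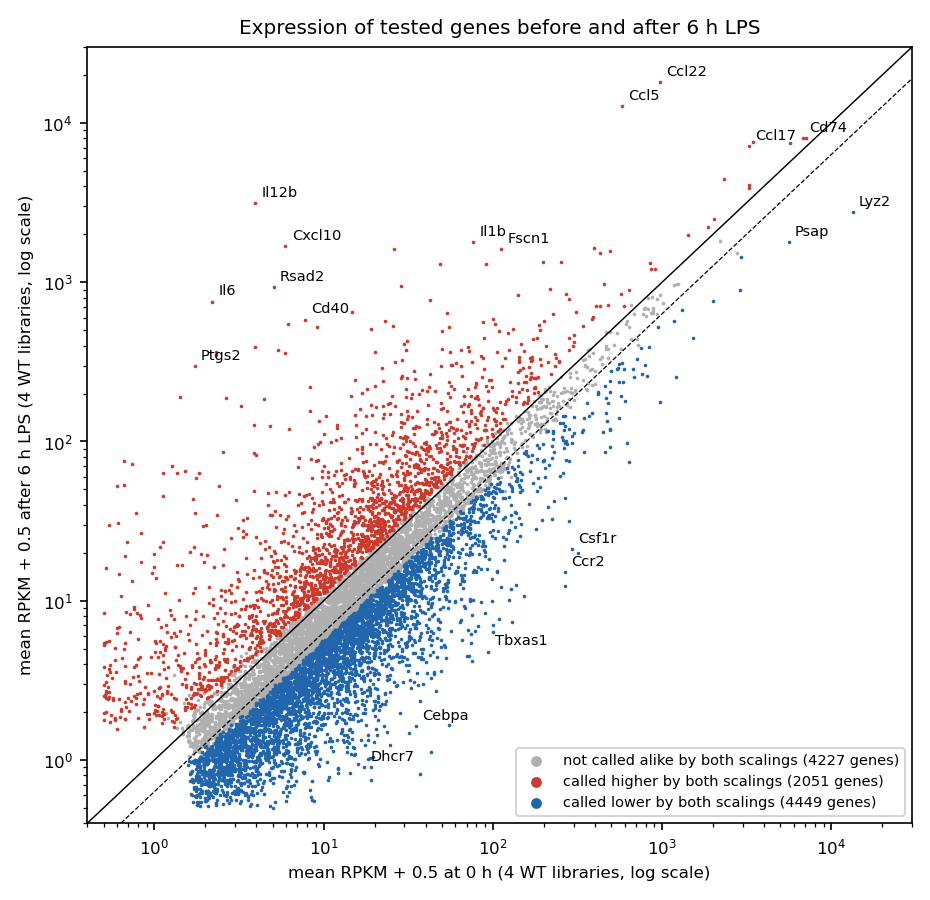
Mean RPKM + 0.5 of each of the 10727 tested genes at 0 h (x axis, log scale) and after 6 h of LPS (y axis, log scale), 4 WT libraries each; red and blue points are the 2051 and 4449 genes called higher or lower by both scalings, grey points the rest. The solid line marks equal values and the dashed line the median change of -0.66; most of the points lie below the solid line, while a few such as Ccl22, Ccl5 and Il12b lie far above it.

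The abundance of a gene went with the median change. Among the 1251 genes with a mean under 2 RPKM over the 8 libraries the median change was -1.01, among 2152 genes at 5 to 10 RPKM it was -0.75, among 1855 genes at 20 to 50 RPKM it was -0.40 and among 504 genes at 100 to 500 RPKM it was -0.09. With scaling these medians were -0.51, -0.09, 0.29 and 0.62. The bins were cut on a mean that includes the 6 h values, so genes that rose lie in higher bins. A low gene could also pass the filter through the 4 libraries of a single group. Of the genes under 2 RPKM, 951 were called lower and 150 higher without scaling. Part of the trend may thus come from the filter and the bins, and how much was not tested. The genes called higher gained 139658 RPKM in sum and those called lower lost 130245 RPKM in sum.

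**Figure D2:**
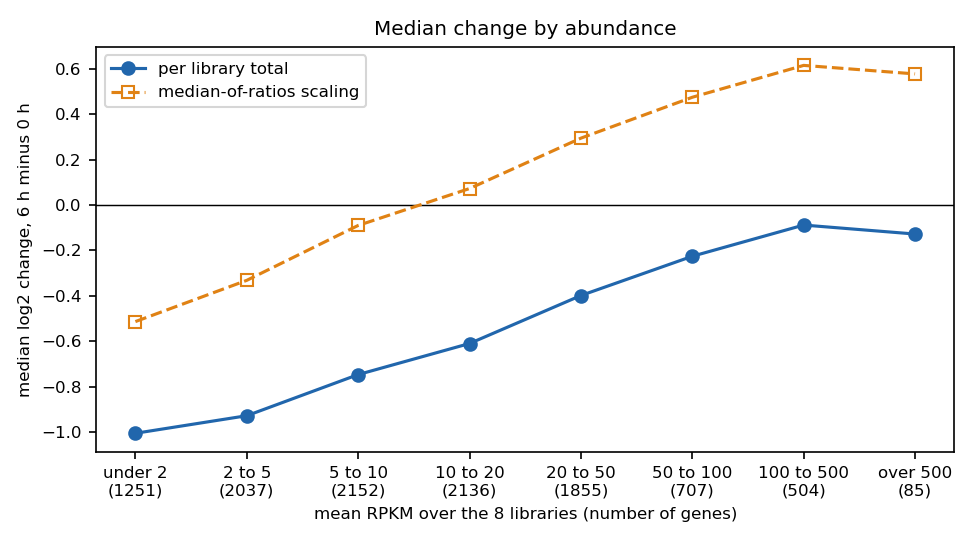
Median log2 change from 0 h to 6 h of the tested genes (y axis) in 8 bins of mean RPKM over the 8 libraries (x axis, number of genes in brackets), per library total (circles) and with median-of-ratios scaling (squares). Both lines climb from the least to the more abundant genes, from -1.01 to -0.09 without scaling, and dip slightly in the bin over 500 RPKM.

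The most abundant message of the mature cells was that of the chemokine Ccl22, which draws CCR4-bearing T cells (mm9 chromosome 8, 97269584 to 97275288). It stood at 959.9, 886, 1058 and 983 RPKM at 0 h and 18957, 16210.2, 17020.2 and 20205 RPKM at 6 h. All 4 values at 6 h were far above all 4 at 0 h, and the change was 4.22 (SE 0.09, adjusted p = 4.72e-12) and 4.92 (adjusted p = 1.09e-12) with scaling. Its share of the summed RPKM went from 0.246% ± 0.0183 to 4.49% ± 0.383. Second was Ccl5, a chemokine for effector T cells and monocytes (mm9 chromosome 11, 83339281 to 83344020), at 549.6, 497, 704 and 576 RPKM at 0 h and 12619, 11985, 13183 and 13281 RPKM at 6 h, which left a wide gap between the groups (change 4.47 (SE 0.10, adjusted p = 6.47e-12), 5.17 with scaling). Together with Ccl17, the other CCR4 ligand, which rose from 3272 ± 316 to 7135 ± 1117 RPKM, these 3 chemokines held 1.22% ± 0.053 of the summed RPKM before LPS and 9.42% ± 0.683 after it.

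The message that ceded the first place was Lyz2, lysozyme of macrophages and granulocytes (mm9 chromosome 10, 116714597 to 116719328). It stood at 13552, 12748, 11908 and 15421 RPKM at 0 h and 2907, 2933, 2764 and 2416 RPKM at 6 h, with no overlap, which took it from 3.4% ± 0.356 to 0.684% ± 0.0661 of the summed RPKM and from rank 1 to rank 12 (change -2.28 (SE 0.10, adjusted p = 8.91e-10), -1.57 (adjusted p = 4.19e-08) with scaling). Psap, the precursor of the saposins that help lysosomal enzymes digest sphingolipids, went from 5602 ± 316 to 1787 ± 84.7 RPKM. Of the 15 most abundant genes at 0 h, 10 were also among the 15 most abundant at 6 h. They were the invariant chain gene Cd74, the MHC class II genes H2-Aa and H2-Ab1, B2m, Ccl17, the actin-binding thymosin gene Tmsb4x, Actb, the ferritin heavy chain Fth1, the protease inhibitor Cst3 and Lyz2. New among the 15 at 6 h were Ccl22, Ccl5, Il12b, the intermediate filament gene Vim and H2-Eb1, while Psap, Lgals3, Ccl6, Ctss and the elongation factor Eef1a1 left it. Of the 100 most abundant genes, 55 were shared.

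On the log2(RPKM + 0.5) scale the largest change of any tested gene, by both scalings, belonged to Il12b, which encodes the p40 chain shared by the cytokines IL-12 and IL-23 (mm9 chromosome 11, 44213565 to 44227519). It stood at 2.72, 3.28, 4.07 and 3.65 RPKM at 0 h and 2912, 3212, 3207 and 3275 RPKM at 6 h. The libraries of each group lay close together and the change was 9.66 (SE 0.09, adjusted p = 3.40e-14), 10.31 with scaling. Both partner chains were called as well: Il12a, which makes IL-12 with p40, was listed at 0 in 3 libraries at 0 h and at 0.0665 RPKM in the other, and at 14.9 to 16.2 RPKM at 6 h (change 4.96, 5.31 with scaling), and Il23a, which makes IL-23 with it, went from 0.158 to 74.8 RPKM (change 6.83, 7.25 with scaling). Il6, an inflammatory cytokine with effects from the liver to B cells, stood at 2.16, 1.11, 2.07 and 1.44 RPKM at 0 h and 754, 853, 744 and 666 RPKM at 6 h, again without overlap (change 8.45 (SE 0.14, adjusted p = 1.34e-12), 9.06 with scaling). Tnfsf15, a costimulatory cytokine of the TNF family, went from 1.81 ± 0.232 to 349.8 ± 16.8 RPKM.

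Of the cytokine genes 23 of 27 tested members were called higher and 4 lower, against 19.1% and 70.8% of all tested genes; with scaling the counts were 23 higher and 2 lower. Their median change was 3.03 (3.72 with scaling), beside -0.66 and -0.01 over all genes, and their summed level went from 568 ± 38.9 to 9013 ± 559.6 RPKM. Il1b and Il1a, the 2 interleukin-1 genes, went from 76 to 1789.9 RPKM and from 8.7 to 524 RPKM, and their antagonist Il1rn from 103 to 544 RPKM. Tnf went from 22.4 to 573 RPKM, Il27 from 2.16 to 186 RPKM, Inhba from 21.7 to 289.6 RPKM and Il15, which sustains natural killer and memory T cells, from 11.3 to 102 RPKM. Ifnb1, interferon β, went from 0.336 to 16.9 RPKM and Il10, an anti-inflammatory cytokine, was listed at 0 in 3 libraries at 0 h and at 0.0701 RPKM in the other, and at 2.52 to 2.74 RPKM at 6 h. Tgfb1, which restrains immune responses, was lower by both scalings (173 to 54.7 RPKM; change -1.66, -0.95 with scaling), as was Tnfsf13b, the B cell survival factor BAFF (2.33 to 0.534 RPKM; change -1.45, -0.97 with scaling).

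Among the chemokine genes 16 of 17 tested members were called higher and 1 lower, and the counts were 16 higher and 1 lower with scaling. The exception was Ccl6, a chemokine of resting myeloid cells, which went from 2895 ± 284 to 895 ± 96.6 RPKM (change -1.69, -0.99 with scaling). The neutrophil attractants Cxcl1, Cxcl2 and Cxcl3 went from 0.867 to 62.8 RPKM, 14.9 to 242 RPKM and 13.9 to 193 RPKM. The monocyte attractants Ccl3 and Ccl4 reached 1303 and 951 RPKM from 48 and 28.3 RPKM, and the ligands of CXCR3, Cxcl9, Cxcl10 and Cxcl11, reached 14.1, 1691 and 30.5 RPKM from 0.114, 5.45 and 0.109 RPKM. All chemokine genes of the list together held 2.12% ± 0.111 of the summed RPKM at 0 h and 11% ± 0.592 at 6 h.

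**Figure D3:**
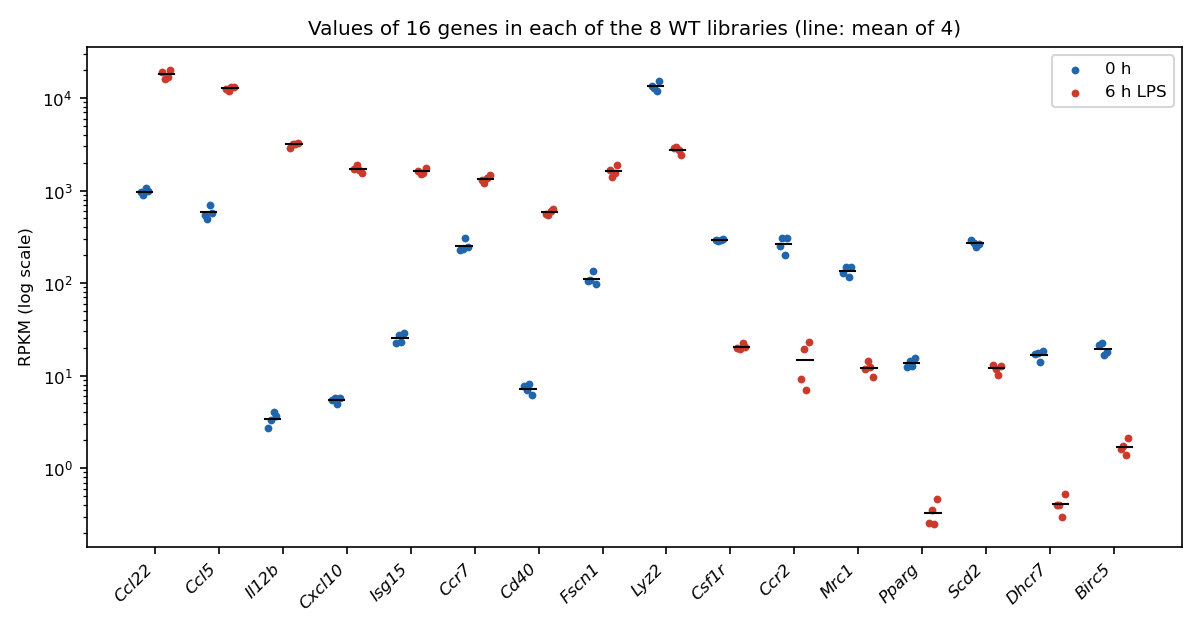
RPKM (y axis, log scale) of 16 genes in each of the 4 WT libraries at 0 h (blue) and 4 after 6 h of LPS (red), with black lines at the means. In all 16 genes the 4 and 4 values stand apart; the first 8 are higher at 6 h and the last 8 lower.

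Every one of the 36 interferon-stimulated genes of the list was called higher, by both scalings, and all were at least 2-fold higher without scaling. Their median change was 3.20 (3.90 with scaling) and their summed level went from 869 ± 29.2 to 12276 ± 191 RPKM. Cxcl10 stood at 5.46, 5.7, 4.95 and 5.69 RPKM at 0 h and 1703, 1866, 1664 and 1533 RPKM at 6 h and its groups lay far apart (change 8.15 (SE 0.07, adjusted p = 1.57e-14), 8.82 with scaling). Rsad2, which encodes the antiviral enzyme viperin, stood at 4.19, 4.44, 4.84 and 4.82 RPKM at 0 h and 926, 1074, 965 and 764 RPKM at 6 h, with the same clear separation (change 7.51 (SE 0.09, adjusted p = 1.79e-13), 8.18 with scaling). Isg15, a ubiquitin-like modifier, went from 25.7 ± 3.14 to 1619 ± 97.3 RPKM, Ifit2 and Ifit1, which bind foreign RNA, from 5.62 to 542 RPKM and from 4.86 to 373 RPKM, and Oasl1, of the oligoadenylate synthetase family, from 1.8 to 365 RPKM. Irf7, the factor that amplifies interferon production, went from 18.5 to 507 RPKM and the kinase gene Cmpk2 from 3.42 to 392 RPKM. The transcription factor gene Stat2, which carries the interferon receptor's signal, went from 63.9 to 296 RPKM. The genes with the next largest changes outside these lists were Ptgs2, the inducible cyclooxygenase (1.23 to 297 RPKM), Ifi205 of the interferon-inducible p200 family (0.913 to 189 RPKM), Hamp, the iron hormone hepcidin (0 to 0.686 RPKM at 0 h, 47 to 91.5 RPKM at 6 h), Coch (0 to 0.225 RPKM at 0 h, 44.2 to 56 RPKM at 6 h) and Plat, tissue plasminogen activator (0.165 to 52.6 RPKM).

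The promoter sequences of some of these genes are shown as examples of windows that hold letters of well-known sites; they were picked with their values known and not by rank of change. They are the 250 bases before the gene's start in RefSeq (GRCm38.p6), a later build than the mm9 of the expression tables. Capitals mark 10 letters of the interferon-response type, GAAANNGAAA, or of the NF-κB type, GGGNNTTTCC, found on either strand; the matches of a kind may overlap each other, as in Isg15.
Rsad2 (chr12:26456453-26456702, minus strand): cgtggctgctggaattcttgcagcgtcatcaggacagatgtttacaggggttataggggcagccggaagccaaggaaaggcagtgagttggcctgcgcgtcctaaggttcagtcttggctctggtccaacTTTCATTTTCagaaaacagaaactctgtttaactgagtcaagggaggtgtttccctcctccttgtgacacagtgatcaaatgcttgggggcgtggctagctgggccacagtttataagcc
Isg15 (chr4:156200819-156201068, minus strand): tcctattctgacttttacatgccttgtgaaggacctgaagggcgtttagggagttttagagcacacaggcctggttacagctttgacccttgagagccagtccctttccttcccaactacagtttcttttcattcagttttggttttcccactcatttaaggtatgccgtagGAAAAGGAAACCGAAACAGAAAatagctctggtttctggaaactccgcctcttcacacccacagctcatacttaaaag
Cxcl10 (chr5:92348890-92349139, minus strand): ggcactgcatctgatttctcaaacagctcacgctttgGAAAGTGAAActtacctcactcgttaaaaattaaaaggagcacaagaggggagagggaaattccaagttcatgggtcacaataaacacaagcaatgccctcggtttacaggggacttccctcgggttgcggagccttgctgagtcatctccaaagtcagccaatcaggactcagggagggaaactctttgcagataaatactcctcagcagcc
Il6 (chr5:30012864-30013113, plus strand): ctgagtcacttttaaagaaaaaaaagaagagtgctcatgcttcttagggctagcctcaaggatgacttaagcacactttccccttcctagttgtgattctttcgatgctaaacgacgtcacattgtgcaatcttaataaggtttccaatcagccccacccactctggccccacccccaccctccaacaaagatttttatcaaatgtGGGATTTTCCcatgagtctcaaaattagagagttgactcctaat
Cxcl2 (chr5:90903649-90903898, plus strand): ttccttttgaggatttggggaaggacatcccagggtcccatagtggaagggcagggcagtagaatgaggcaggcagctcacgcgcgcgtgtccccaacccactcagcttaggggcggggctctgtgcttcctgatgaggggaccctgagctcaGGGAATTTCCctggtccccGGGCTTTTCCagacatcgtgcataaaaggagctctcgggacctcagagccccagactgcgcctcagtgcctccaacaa
Rsad2 and Cxcl10 had 1 interferon-type match each, Isg15 had 3, Il6 had 1 NF-κB-type match and Cxcl2 had 2. The interferon-type letters stood in 16 of 35 promoter windows of 29 genes of the interferon list (45.7%), against 2.98% of all 32851 windows of the same length and 2.86% of those of tested genes. The NF-κB-type letters stood in 4 of 12 windows of the chemokine list (33.3%) and in 4 of 27 of the cytokine list (14.8%), against 1.41% of all windows. Among windows of the genes at least 2-fold higher without scaling, 7.25% held the interferon type and 3.86% the NF-κB type, and among those at least 2-fold lower with scaling 1.9% and 1.43%. The higher genes take in all 36 of the interferon list and members of the chemokine and cytokine lists. Their shares are therefore not separate from those of the lists. A match of letters is a description of the sequence, not a site shown to be bound.

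Markers of the mature, migratory dendritic cell were higher nearly throughout. Of 20 marker genes, 18 were called higher and 1 lower, and with scaling 19 were called higher and 0 lower, with a median change of 2.29 (2.99 with scaling). Ccr7, the receptor that leads dendritic cells into lymph vessels, stood at 230.5, 231, 307 and 248 RPKM at 0 h and 1306, 1213, 1362 and 1454 RPKM at 6 h, all 4 values at 6 h being higher (change 2.40 (SE 0.09, adjusted p = 4.32e-10), 3.10 with scaling). Fscn1, the actin bundler of dendrites, went from 111 ± 16 to 1619 ± 196 RPKM, and Marcksl1, an actin regulator, from 90.7 ± 14.1 to 1306 ± 103 RPKM. Cd200, which binds an inhibitory receptor on myeloid cells, went from 3.37 to 127 RPKM, Serpinb9, an inhibitor of granzyme B, from 15.9 to 159 RPKM and Il15ra, which presents IL-15 to other cells, from 8.96 to 99.3 RPKM. The exceptions without scaling were Socs2 (74.2 to 79.6 RPKM), which was not called, and Tnfrsf4 (5.12 to 3.04 RPKM), which was called lower and was not called with scaling.

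Costimulatory genes were higher as well. Cd40, the receptor for T cell help, stood at 7.64, 7.07, 8.13 and 6.18 RPKM at 0 h and 557, 544, 596 and 629 RPKM at 6 h, without overlap (change 6.23 (SE 0.08, adjusted p = 1.91e-13), 6.91 with scaling). Cd70, the ligand of CD27, went from 1.01 to 65.2 RPKM, Tnfsf4, the OX40 ligand, from 19.7 to 223 RPKM and the classical pair Cd80 and Cd86 from 41.8 to 265 RPKM and from 56.1 to 304 RPKM. The inhibitory ligand gene Cd274 (PD-L1) went from 99.3 to 586 RPKM along with them. Of the 18 costimulatory and coinhibitory genes tested, 12 were called higher and 2 lower, and with scaling 16 and 2. The 2 lower ones were Havcr2, an inhibitory receptor known as TIM-3 (8.29 to 3.06 RPKM), and 4632428N05Rik, the checkpoint gene also called Vsir.

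The genes of antigen presentation moved in both directions within each class. For MHC class I, 15 of 19 tested members were called higher and 4 lower (17 higher and 2 lower with scaling). Tapbp, the chaperone that loads class I, went from 131 to 506 RPKM, the transporter Tap1 from 78.1 to 218 RPKM, the proteasome activator genes Psme1 and Psme2 from 142 to 341 RPKM and from 88 to 283 RPKM, and Nlrc5, the activator of class I genes, from 16.4 to 84.6 RPKM. The immunoproteasome genes Psmb8 (LMP7), Psmb9 and Psmb10 (MECL1), of which the dKO cells of the series lack 2, were present in all 8 WT libraries and went from 193 to 304 RPKM, from 118 to 335 RPKM and from 58.6 to 113 RPKM. The folding genes Calr and Canx were lower by both scalings (416 to 203 RPKM and 109 to 55.5 RPKM).

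For MHC class II, 7 of 15 tested genes were called higher and 8 lower, beside 19.1% and 70.8% of all tested genes. With scaling the counts were 8 and 4, beside 41.2% and 41.5%. With all 32 libraries in the fit the 7 became 2, as H2-Aa, H2-Ab1, Cd74, Ciita and H2-Oa were no longer called (adjusted p = 0.0736 to 0.176). That fit takes in the dKO groups, in each of which a library stood apart from the others, as given in the section on processing. The chains themselves moved little: H2-Aa went from 3247 ± 278 to 3889 ± 253 RPKM, H2-Ab1 from 2029.7 ± 263 to 2489 ± 226 RPKM, H2-Eb1 from 1419 ± 181 to 1983 ± 165 RPKM and Cd74 from 6838 ± 468 to 8038 ± 526 RPKM, changes of 0.26, 0.30, 0.49 and 0.23, and quantile normalization turned those of H2-Aa and Cd74 to -0.11 and -0.18. The genes that process and load the peptides were lower, among them H2-DMa, the peptide exchanger (589.6 to 234 RPKM; change -1.33, -0.62 with scaling), Ifi30, the thiol reductase of lysosomes (222 to 92.9 RPKM; change -1.25, -0.55 with scaling), and Lgmn, the asparagine endopeptidase (227 to 116 RPKM; change -0.97, -0.26 with scaling). March1, the ubiquitin ligase that removes class II and CD86 from the surface, fell from 26.7 ± 0.983 to 9.05 ± 1.05 RPKM (change -1.51, -0.83 with scaling). The other genes of the list, H2-Eb2, H2-Oa and Ciita, were called higher and H2-DMb1, H2-DMb2, H2-Ob and Ctss lower without scaling; with scaling H2-DMb1, H2-DMb2 and Ctss were not called and H2-Ob was called higher. The call of H2-Oa was lost without replicate 4 at 0 h (adjusted p = 0.0657) and without replicate 3 at 6 h (adjusted p = 0.0602). The class II list held 4.54% ± 0.322 of the summed RPKM at 0 h and 4.67% ± 0.223 at 6 h.

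Genes of the inflammatory feedback list were nearly all called higher: 18 of 20 were called higher and 1 lower, and with scaling all 20 higher. Nfkbia, the inhibitor of NF-κB, went from 218 to 912 RPKM, Tnfaip3, which encodes the deubiquitinase A20, from 30.2 to 188 RPKM, and the suppressor Socs3 from 113 to 298 RPKM. Among survival genes 10 of 20 were called higher and 7 lower (14 and 3 with scaling), beside 19.1% and 70.8% of all tested genes (41.2% and 41.5% with scaling). Bcl2l1, the gene of the anti-apoptotic protein Bcl-xL, went from 28.1 to 123 RPKM and Cflar, the inhibitor of caspase 8, from 17.4 to 119 RPKM, whereas Bcl2 itself went from 2.53 to 0.374 RPKM and the pro-apoptotic Bax from 104 to 50.6 RPKM. The near-identical genes Bcl2a1a, Bcl2a1b and Bcl2a1d were called higher too. How reads were shared among close copies is not given in the sources used here, so the levels of these genes, of Lyz2, of H2-DMb1 and H2-DMb2 and of the MHC class I chains are uncertain to that extent.

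Of 44 transcription factor genes tested, 20 were called higher and 20 lower, beside 19.1% and 70.8% of all tested genes, and with scaling 27 and 14, beside 41.2% and 41.5%. Higher were the NF-κB subunits Nfkb2, Rel and Relb (54.8 to 235 RPKM, 21.9 to 72.5 RPKM and 49 to 115 RPKM), Stat5a (34.4 to 248 RPKM), Batf (13.9 to 59.6 RPKM) and 2 factors of dendritic cell development, Irf8 (88.6 to 444 RPKM) and Irf4 (98.1 to 218 RPKM). Lower were several factors of the monocyte and macrophage lineage, though Maf (1.2 to 1.15 RPKM) was not called without scaling and was called higher with it. Cebpa, which sets myeloid fate in progenitors, stood at 30.8, 34.8, 37.1 and 35 RPKM at 0 h and 1.09, 1.06, 1.25 and 1.17 RPKM at 6 h, so that all 4 values at 6 h were near 1 RPKM (change -4.41 (SE 0.07, adjusted p = 1.20e-12), -3.81 with scaling). Pparg, the lipid-sensing nuclear receptor that GM-CSF induces, stood at 12.5, 14.3, 12.7 and 15.5 RPKM at 0 h and 0.259, 0.357, 0.25 and 0.459 RPKM at 6 h, below 1 RPKM in each library at 6 h (change -4.10 (SE 0.11, adjusted p = 2.05e-11), -3.61 with scaling). Klf4 went from 27.2 to 3.6 RPKM, Runx1 from 16.2 to 2.14 RPKM and Rxra, the partner of Pparg, from 28.4 to 4.3 RPKM. The immediate early genes Egr1, Egr2 and Fos stood at 31.7, 74.7 and 35.7 RPKM before LPS and at 0.971, 3.69 and 3.91 RPKM after 6 h.

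Leading genes of the macrophage, among them Csf1r, Mrc1 and Apoe, were lower by both scalings. Of the 21 tested macrophage markers, 3 were called higher and 16 lower, shares not far from the 19.1% and 70.8% of all tested genes, and with scaling 7 and 13, beside 41.2% and 41.5%. Their median change was -1.41 (-0.71 with scaling), beside -0.66 and -0.01, and their summed level went from 16687 ± 1471 to 4145 ± 354 RPKM, most of it Lyz2. Csf1r, the receptor for the macrophage growth factor M-CSF, stood at 290.1, 285, 295 and 296 RPKM at 0 h and 19.9, 19.3, 22.2 and 20.6 RPKM at 6 h, the values at 6 h lying far below (change -3.80 (SE 0.05, adjusted p = 2.67e-13), -3.10 with scaling). Mrc1, the mannose receptor, went from 136 ± 15.7 to 12 ± 1.92 RPKM, the complement genes C1qa, C1qb and C1qc from 210.2 to 38.3 RPKM, 471 to 133 RPKM and 279.6 to 75 RPKM, and Apoe from 201 to 75.6 RPKM. Not all followed: Cd14, the LPS co-receptor, went from 79.4 to 229 RPKM, Mertk, which clears dead cells, from 35 to 70.2 RPKM and Marco, a scavenger receptor, from 27.2 to 52.7 RPKM. Of 10 tested monocyte markers, 2 were called higher and 7 lower without scaling, shares near those of all tested genes. With scaling the counts were 5 and 3, and the median change was -0.44 (0.16 with scaling). Ly6c2 (80.5 to 193 RPKM) and Plac8 (4.43 to 33.9 RPKM) were higher by both scalings, while Ccr2, F13a1 and Chi3l3 were lower by both. In whole-culture RNA, fewer cells of a type and less RNA per cell cannot be told apart.

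The conventional dendritic cell markers moved in both directions. Of 19 tested, 6 were called higher and 10 lower, beside 19.1% and 70.8% of all tested genes. With scaling the counts were 9 and 8, shares near the 41.2% and 41.5% of all tested genes. Higher beside Irf8 and Irf4 were Zbtb46 (9.33 to 24.7 RPKM) and Id2 (405 to 708 RPKM), which mark and shape the lineage. Lower by both scalings were surface molecules of the immature cell: Itgax, which encodes CD11c (493 to 205 RPKM), Sirpa (259 to 102 RPKM), Cd24a (194 to 31.5 RPKM) and the lectin genes Clec10a (151 to 10.1 RPKM), Mgl2 (965 to 176 RPKM) and Cd209a (15.5 to 1.26 RPKM). The list did not divide cleanly into raised factors and lowered surface molecules. The factor gene Cbfa2t3 was lower by both scalings (12.9 to 3.29 RPKM), and Sfpi1 (233 to 138 RPKM) was called lower without scaling only. Batf3 was not called without scaling (39.85 to 34.8 RPKM) and was called higher with it. The receptor gene Flt3 was higher by both scalings (0.613 to 1.51 RPKM). Of the Langerhans cell list, the adhesion genes Cdh1 (70.9 to 6.06 RPKM) and Epcam (7.74 to 0.531 RPKM) as well as Cldn1 (23.2 to 6.81 RPKM) were lower, while Ly75, the receptor DEC-205 (21.8 to 139.6 RPKM), and Cd207 (2.03 to 5.49 RPKM) were higher.

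Of 33 receptors for uptake, 24 were called lower and 7 higher, shares near the 70.8% and 19.1% of all tested genes, and with scaling 23 and 9, beside 41.5% and 41.2%. The size of the changes was larger than over all genes, with a median change of -1.82 (-1.12 with scaling) beside -0.66 (-0.01). The Fc receptor genes Fcgr2b and Fcgr3 went from 462 to 85.6 RPKM and from 489 to 91.6 RPKM, the fungal receptor Clec4n (dectin-2) from 1202 ± 75.5 to 252 ± 41.4 RPKM, Clec7a (dectin-1) from 203 to 59.1 RPKM, and the scavenger receptor Scarb1 from 43.9 to 4.28 RPKM. Itgam, the complement receptor chain CD11b, went from 249.6 to 60.5 RPKM. In the other direction Clec4e, the mycobacterial glycolipid receptor Mincle, went from 37.5 to 209 RPKM and the integrin chain Itgav from 6.96 to 35.1 RPKM.

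The receptors by which cells find their way moved in both directions. Of 15 tested, 10 were called lower and 5 higher (9 and 5 with scaling), beside 70.8% and 19.1% of all tested genes (41.5% and 41.2% with scaling). The 5 higher became 3 with all 32 libraries in the fit. Ccr2, which brings monocytes into inflamed tissue, stood at 252, 307, 201 and 309 RPKM at 0 h and 9.22, 19.3, 7.0 and 23.1 RPKM at 6 h, with the groups far apart (change -4.28 (SE 0.32, adjusted p = 1.06e-07), -3.59 with scaling). Ccr1 (79.1 to 14.7 RPKM), Cxcr4 (36.6 to 5.49 RPKM), the leukotriene B4 receptor Ltb4r1 (44.7 to 2.95 RPKM) and the chemerin receptor Cmklr1 (53.5 to 8.51 RPKM) were lower too. Ccr7 was higher, as was Ccrl2 (6.55 to 69 RPKM), an atypical receptor that does not signal migration. Tlr4, the LPS receptor itself, went from 31.3 ± 0.882 to 5.17 ± 0.327 RPKM (change -2.49, -1.81 with scaling), whereas Tlr1, Tlr3 and Tlr7 were higher (0.73 to 8.24 RPKM, 1.85 to 7.87 RPKM and 9.09 to 17.6 RPKM). Tlr11 and Tlr13 were lower as well without scaling, at 0.096 and 0.383 of their mean RPKM at 0 h. Of 22 tested genes of Toll-like receptors and their adaptors, 9 were called higher and 11 lower (13 and 6 with scaling), beside the same shares of all tested genes.

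Genes of the phagocyte oxidase, which makes superoxide in the phagosome, did not move together. Cybb (149.6 to 289 RPKM) and Ncf1 (179.7 to 248 RPKM) were called higher by both scalings. Cyba (717 to 405 RPKM) was called lower only without scaling, and Ncf4 (46.3 to 35.4 RPKM) and Rac2 (96.2 to 77.5 RPKM) were called lower without it and higher with it.

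Lysosomal genes were called lower in 33 of 37 cases and higher in 2 without scaling, and lower in 21 and higher in 8 with it, beside 70.8% and 19.1% of all tested genes without scaling and 41.5% and 41.2% with it. Gusb (98.2 to 13.3 RPKM), Npc1, the cholesterol exporter of lysosomes (50.3 to 8.61 RPKM), Asah1 (118 to 24 RPKM), Lipa (123 to 25.9 RPKM) and the proton pump subunit Atp6v0d2 (144 to 25.1 RPKM) were at least 2-fold lower by both scalings. The list held 3.85% ± 0.15 of the summed RPKM at 0 h and 1.82% ± 0.113 at 6 h. Tcfeb, the master regulator of lysosomal genes, went from 16.8 to 2.63 RPKM. Among the 10 largest losses of RPKM were also the ferritin light chain Ftl1 (1992 to 759 RPKM), Lgals3, which encodes galectin-3 (2917 to 1429.8 RPKM), the chitinase-like gene Chi3l3 of alternatively activated macrophages (1533 to 446 RPKM), the cathepsin Ctss (2756 to 1532 RPKM; change -0.85, -0.14 with scaling, not called with scaling) and the elastase Mmp12 (1312 to 665 RPKM). Outside the lists, the matrix protein gene Tgfbi went from 318 to 19.6 RPKM.

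**Figure D4:**
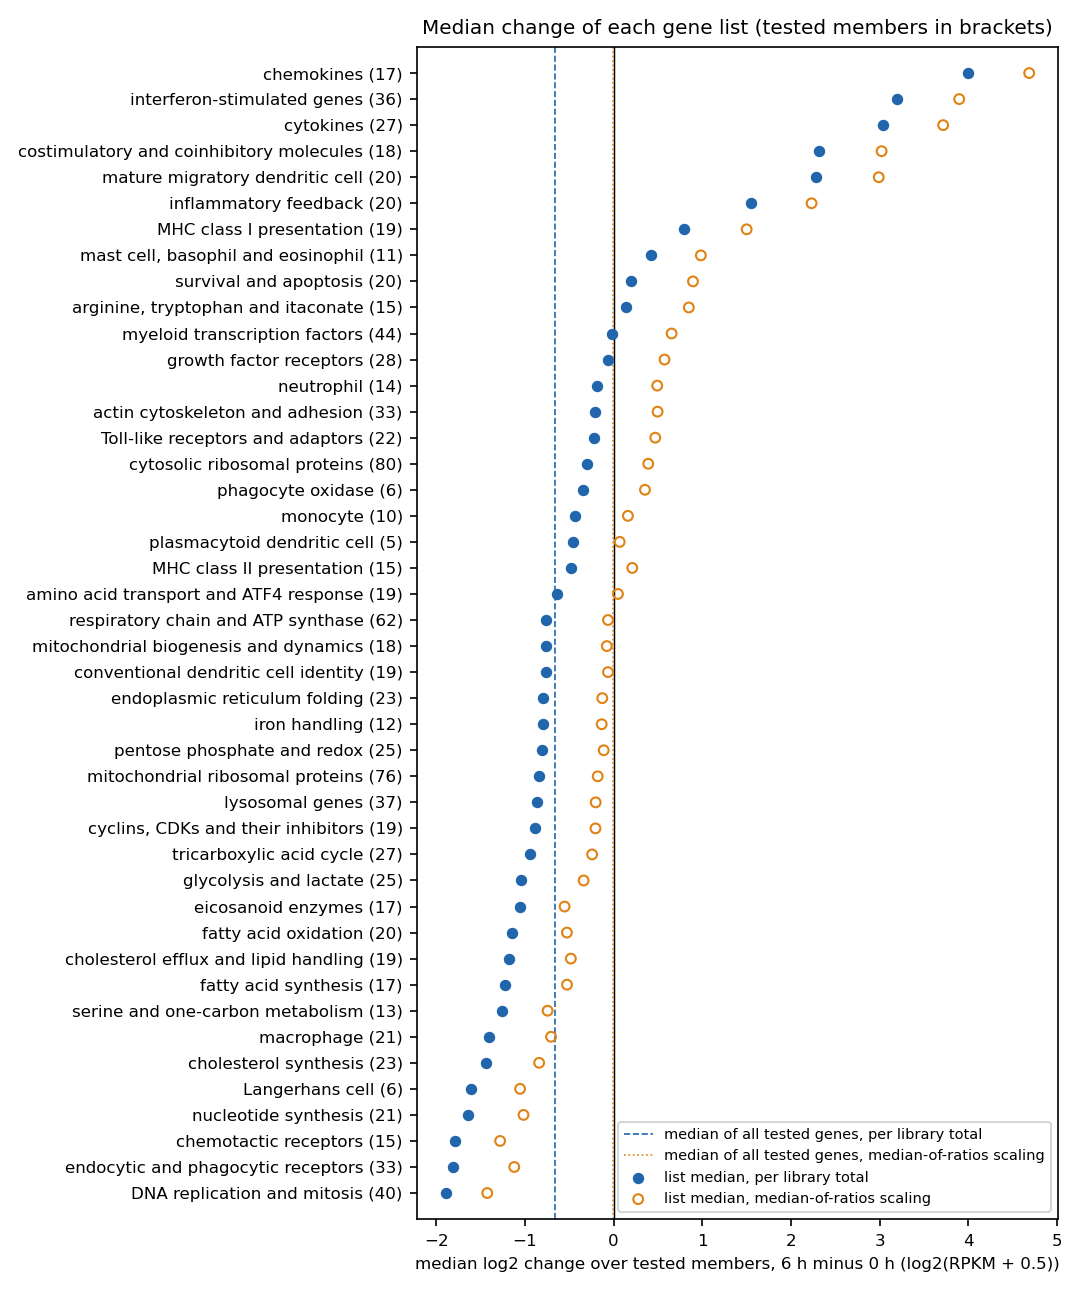
Median log2 change from 0 h to 6 h (x axis) over the tested members of each gene list with 5 or more tested members (y axis, number in brackets), per library total (filled) and with median-of-ratios scaling (open); dashed and dotted lines mark the medians of all tested genes, -0.66 and -0.01. Chemokines, interferon-stimulated genes and cytokines stand at the top, above 3, and DNA replication and mitosis at the bottom, at -1.89 and -1.43.

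Each metabolic list is set against 70.8% of all genes called lower without scaling and 41.5% with it. The shares called higher were 19.1% and 41.2%. Genes of lipid synthesis were mostly lower by both. Of 23 genes of cholesterol synthesis and uptake, 21 were called lower without scaling and 18 with it, and 2 were called higher by both. Dhcr7, the last enzyme of cholesterol synthesis, stood at 17.3, 17.8, 14.1 and 18.3 RPKM at 0 h and 0.40, 0.397, 0.296 and 0.529 RPKM at 6 h, all 4 values at 6 h being under 1 RPKM (change -4.26 (SE 0.11, adjusted p = 1.56e-11), -3.75 with scaling). Sqle, squalene epoxidase, went from 41 to 6.27 RPKM, and Acat2 from 18.4 to 2.29 RPKM. The exceptions were Idi1 (2.77 to 5.97 RPKM) and Pmvk (24.7 to 33.7 RPKM).

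Genes of fatty acid synthesis were mostly lower as well. Of 17 genes 16 were called lower and 1 higher, and with scaling 14 and 2. Scd2, a desaturase that makes monounsaturated fatty acids, stood at 289, 273, 244 and 267 RPKM at 0 h and 13, 11.8, 10.2 and 12.8 RPKM at 6 h, with no overlap (change -4.43 (SE 0.08, adjusted p = 2.00e-12), -3.74 with scaling). Fads1, a desaturase of polyunsaturated fatty acids, went from 24.3 to 0.746 RPKM, the fatty acid synthase gene Fasn from 22.8 to 1.84 RPKM and the elongase gene Elovl6 from 3.95 to 0.108 RPKM. Dgat2, which makes storage triglyceride, went the other way (1.98 to 10.2 RPKM). Among lipid handling genes 16 of 19 were called lower and 2 higher (12 and 4 with scaling), with Soat1, which esterifies cholesterol, at 59.6 to 9.44 RPKM and Abca1, its exporter, at 25.1 to 7.17 RPKM. Fatty acid oxidation had 17 of 20 called lower and 2 higher (12 and 6 with scaling), Hadh going from 19.6 to 2.97 RPKM, but Acsl1, which activates long-chain fatty acids, from 19.5 to 114 RPKM.

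For mitochondrial genes the counts depended on the scaling. Of 27 genes of the tricarboxylic acid cycle, 25 were called lower and 1 higher, and with scaling 17 and 6. Idh2 and Idh1, the NADP-linked isocitrate dehydrogenases, went from 36.8 to 5.39 RPKM and from 88.8 to 21.4 RPKM and Fh1, fumarase, from 43 to 9.14 RPKM, whereas the citrate carrier Slc25a1 went from 55.3 to 131 RPKM. Of 62 genes of the respiratory chain and ATP synthase, 56 were called lower and 2 higher without scaling, but 24 lower and 19 higher with it, and their medians, -0.76 and -0.06, were close to those of all genes, -0.66 and -0.01. The count of 2 higher was 1 without replicate 3 at 0 h, or without replicate 1 or replicate 4 at 6 h. The 76 mitochondrial ribosomal protein genes had 72 lower and 2 higher, or 36 and 13 with scaling, with medians of -0.84 and -0.18.

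Genes of glycolysis moved in both directions. Of 25 genes 19 were called lower and 4 higher, shares near the 70.8% and 19.1% of all tested genes. With scaling the counts were 14 and 9, beside 41.5% and 41.2%. Their median change was -1.04 (-0.34 with scaling), beside -0.66 (-0.01) over all genes. Aldoc (115 to 32.2 RPKM), Gpi1 (476 to 175 RPKM), Pkm2, the pyruvate kinase gene (794 to 302 RPKM), the kinase of pyruvate dehydrogenase Pdk1 (27 to 5.0 RPKM) and the glucose transporter Slc2a1 (124 to 44.4 RPKM) were lower by both scalings. Higher by both were the glucose transporter Slc2a6 (36.3 to 124 RPKM), the hexokinase Hk3 (30.6 to 64.4 RPKM), Pfkp (156 to 256 RPKM) and Pfkfb3 (35.9 to 54.6 RPKM), the last of which makes the activator of phosphofructokinase. Several genes of this pathway have processed copies in the genome and stand at low values here, so their levels are uncertain.

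Among genes of amino acid metabolism were some of the most raised enzymes. Nos2, the inducible nitric oxide synthase, stood at 5.68, 4.19, 5.1 and 6.7 RPKM at 0 h and 373, 429, 377 and 253 RPKM at 6 h, and Irg1, whose product makes itaconate from an intermediate of the tricarboxylic acid cycle, at 16.9, 11.1, 15.9 and 13.1 RPKM at 0 h and 677, 719, 639.8 and 577 RPKM at 6 h. Both stood apart in every library (changes 5.91 (SE 0.16, adjusted p = 2.77e-11) and 5.48 (SE 0.12, adjusted p = 5.73e-12), 6.58 and 6.17 with scaling). Il4i1, a secreted amino acid oxidase, went from 72.2 to 369 RPKM, while Arg1, which competes with Nos2 for arginine, went from 75.3 ± 18.9 to 7.6 ± 2.22 RPKM (change -3.24, -2.56 with scaling). Of the 15 genes of this list tested, 8 were called higher and 7 lower, and with scaling 9 and 5.

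Among the eicosanoid enzymes the cyclooxygenase genes moved in opposite directions. Ptgs2 was high at 6 h and Ptgs1, the constitutive cyclooxygenase, went from 17.7 ± 3.59 to 0.827 ± 0.153 RPKM. Tbxas1, thromboxane synthase, stood at 100.3, 93.4, 86.5 and 94.6 RPKM at 0 h and 4.48, 3.96, 3.78 and 4.93 RPKM at 6 h, with no overlap (change -4.30 (SE 0.08, adjusted p = 2.32e-12), -3.63 with scaling). The leukotriene genes Alox5, Alox5ap and Lta4h were lower (40.2 to 5.88 RPKM, 494 to 120.0 RPKM and 105 to 14.8 RPKM), and Ptges, the inducible prostaglandin E synthase, went from 0.554 to 7.23 RPKM. The list had 13 of 17 called lower and 4 higher, shares near the 70.8% and 19.1% of all tested genes. With scaling the counts were 10 and 6, beside 41.5% and 41.2%. Daglb, a lipase that makes the endocannabinoid 2-arachidonoylglycerol and so feeds arachidonic acid to these enzymes, had the lowest change of any gene under the naming rule, with 42.5, 47.7, 39.2 and 40.8 RPKM at 0 h and 0.539, 0.544, 0.857 and 0.564 RPKM at 6 h (change -5.26 (SE 0.10, adjusted p = 2.96e-12), -4.71 with scaling).

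Genes of proliferation were lower too. Of 40 genes of DNA replication and mitosis, 37 were called lower and 3 higher, and with scaling 35 and 4, and the median change, -1.89 and -1.43, was the lowest of all lists. Birc5, survivin, stood at 21.4, 22.4, 16.7 and 18 RPKM at 0 h and 1.6, 1.72, 1.39 and 2.1 RPKM at 6 h, all values at 6 h being below all at 0 h (change -3.19 (SE 0.12, adjusted p = 2.73e-10), -2.57 with scaling). Ccna2 and Ccnb2, the S phase and mitotic cyclins, went from 16.1 to 1.3 RPKM and from 17.2 to 1.85 RPKM, Cdc20, the activator of the anaphase-promoting complex, from 10.5 to 0.702 RPKM and Top2a from 24.4 to 3.28 RPKM. The exceptions were Gins2 (13.8 to 21.9 RPKM), Tyms (3.08 to 6.37 RPKM) and Cenpe (4.78 to 5.92 RPKM), the last of which was no longer called without replicate 3 at 0 h (adjusted p = 0.0519). Nucleotide synthesis had 19 of 21 called lower and 2 higher (18 and 3 with scaling), with Rrm2 at 17.1 to 1.59 RPKM and Cad at 12.4 to 1.08 RPKM, and one-carbon metabolism had 10 of 13 lower and 3 higher (9 and 4 with scaling). Among cell cycle regulators Myc went from 17.1 ± 1.39 to 1.46 ± 0.462 RPKM, Cdk4 from 64.2 to 14 RPKM and E2f2 from 14.2 to 0.858 RPKM, while Cdkn1a, the inhibitor p21, went from 272 to 847 RPKM, Mxd1, an antagonist of Myc, from 20.0 to 96 RPKM and the cyclin gene Ccnd2 from 29.4 ± 2.05 to 408 ± 38.5 RPKM.

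Promoters of a pair of mitotic genes are shown for the letters that cell cycle genes are known for, the CCAAT box and the cell cycle homology region, TTTGAA. They are the 250 bases before the start, from RefSeq (GRCm38.p6), with both kinds of match, on either strand, in capitals.
Ccnb2 (chr9:70421555-70421804, minus strand): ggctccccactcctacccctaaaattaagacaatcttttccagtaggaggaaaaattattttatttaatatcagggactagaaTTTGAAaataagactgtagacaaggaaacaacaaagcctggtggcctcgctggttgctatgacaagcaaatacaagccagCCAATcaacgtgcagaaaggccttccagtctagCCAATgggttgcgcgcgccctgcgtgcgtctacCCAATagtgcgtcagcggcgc
Cdc20 (chr4:118437344-118437593, minus strand): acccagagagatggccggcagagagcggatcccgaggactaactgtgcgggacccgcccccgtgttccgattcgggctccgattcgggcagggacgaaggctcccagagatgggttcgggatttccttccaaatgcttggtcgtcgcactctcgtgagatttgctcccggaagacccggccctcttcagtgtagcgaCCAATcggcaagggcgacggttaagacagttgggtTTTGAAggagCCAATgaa
Ccnb2 had 3 CCAAT boxes and 1 TTTGAA, and Cdc20 had 2 and 1. CCAAT stood in 23 of 36 promoter windows of the replication and mitosis list (63.9%), against 33.8% of all windows and 34.9% of those of tested genes, and TTTGAA in 9 of 36 (25%), against 16% and 10.6%. Among windows of the genes at least 2-fold higher without scaling, 27.4% held CCAAT and 12.1% TTTGAA, and among those at least 2-fold lower with scaling 37.4% and 11.9%. The lower genes take in members of the replication and mitosis list, such as Birc5, so their shares are not separate from those of the list. In the cholesterol list the sterol-response type, TCACNCCAC, stood in 1 of 19 windows (5.26%), against 1.05% of all windows. These shares describe the letters of the windows and say nothing about factors that were not measured.

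The cytosolic ribosomal protein genes showed the dependence on scaling most plainly. Of 80 tested, 64 were called lower and 2 higher without scaling, and 4 lower and 67 higher with it. Their medians were -0.31 and 0.39, above those of all genes under either scaling. They held 5.38% ± 0.176 of the summed RPKM at 0 h and 4.44% ± 0.0707 at 6 h. Many of these genes have near-identical processed copies, so their levels carry the same uncertainty.

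Markers of other cell types were checked in the same libraries. The defining T and natural killer cell genes were near 0: 1 of 12 reached the test, and the summed level was 1.22 to 1.91 RPKM at 0 h and 4.15 to 4.93 RPKM at 6 h. Most of the sum at 6 h, but not at 0 h, was Lck (0.169 to 3.38 RPKM). Of the B cell genes, 1 of 10 was tested, the adaptor Blnk (9.48 to 69.5 RPKM), and 8 of 10 were under 1 RPKM in all 8 libraries. None of the 5 erythroid genes in the tables reached 1 RPKM, and their summed level was at most 0.365 RPKM. Granulocyte genes were present. The neutrophil list summed to 664 to 849 RPKM at 0 h and 651 to 917 RPKM at 6 h, with 6 of 14 tested members called higher and 5 lower (8 and 4 with scaling). Lcn2 was higher (21.8 to 240.1 RPKM) and the collagenase gene Mmp8 lower (65.6 to 12.8 RPKM) by both scalings, and S100a9 stood at 309 to 274 RPKM. The mast cell, basophil and eosinophil list summed to 905 to 1201 RPKM at 0 h and 788 to 1276 RPKM at 6 h, with 6 of 11 called higher and 3 lower (8 and 3 with scaling). Beside the counts of both lists stand the shares of all tested genes, 19.1% higher and 70.8% lower (41.2% and 41.5% with scaling). Prg2 (389 to 601 RPKM) and Hdc (2.04 to 86 RPKM) were higher and Ear2 (552 to 139.8 RPKM) and Siglec5 (30.2 to 4.83 RPKM) lower by both scalings. The summed ranges of both lists overlapped between the groups while their members moved in both directions, and their part in the other results was not tested.

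The earlier WT times place the 6 h state in the course of the response. Over the tested genes the median change against 0 h, from group means, was -0.43 at 1 h, -0.74 at 2 h and -0.66 at 6 h. The genes that hold 50% of the summed RPKM numbered 186 ± 4.99 at 2 h and 198 ± 4.32 at 6 h. Genes at 1 RPKM or more numbered 9465 to 9562 at 2 h and 9581 to 9623 at 6 h. By contrast, the 10 most abundant genes held 15.1% ± 0.17 at 2 h and 20.2% ± 0.819 at 6 h. Against 2 h, in a fit of all 16 WT libraries, 4738 of 10933 genes (43.3%) were higher at 6 h and 3550 (32.5%) lower, and with scaling 4272 and 4110. These counts share the 6 h libraries with the counts against 0 h and are given beside them, not as separate support. Among cytokine genes, the counts were 6 of 28 higher and 19 lower at 6 h than at 2 h, and among chemokine genes 4 of 17 higher and 11 lower. The counts were, of the interferon-stimulated genes, 23 of 36 higher and 8 lower, of the mature dendritic cell markers 18 of 20 higher and 0 lower, of MHC class I genes 16 of 19 higher and 2 lower, and of the receptors for uptake 6 of 33 higher and 27 lower.

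Single genes show the orders that lie behind these counts. Tnf stood at 22.4 ± 2.71, 5032 ± 213, 3381 ± 323 and 573 ± 78.1 RPKM at 0, 1, 2 and 6 h, so that its 6 h level was well below its peak at 1 h (change from 2 h to 6 h -2.57 (adjusted p = 1.68e-13)). Il6 and Cxcl10 were highest at 2 h, at 1.7 ± 0.503, 885 ± 37.3, 1443 ± 115 and 754 ± 76.4 RPKM and at 5.45 ± 0.353, 1164 ± 112, 3298 ± 138 and 1691 ± 137 RPKM. Ccl22 climbed through all times, with 972 ± 70.7, 3255 ± 323, 6134 ± 426 and 18098 ± 1817 RPKM, and so did Ccl5 and Il12b. Lyz2 stood at 13407 ± 1501, 7389 ± 448, 6067 ± 549.7 and 2755 ± 238 RPKM and Csf1r at 291 ± 5.06, 188 ± 6.48, 114 ± 5.58 and 20.5 ± 1.28 RPKM, with a lower mean at each later time. Ccr7 had its highest mean at 6 h and a smaller peak at 1 h, at 254 ± 36.1, 642 ± 58.2, 450.0 ± 33.3 and 1334 ± 101 RPKM.

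**Figure D5:**
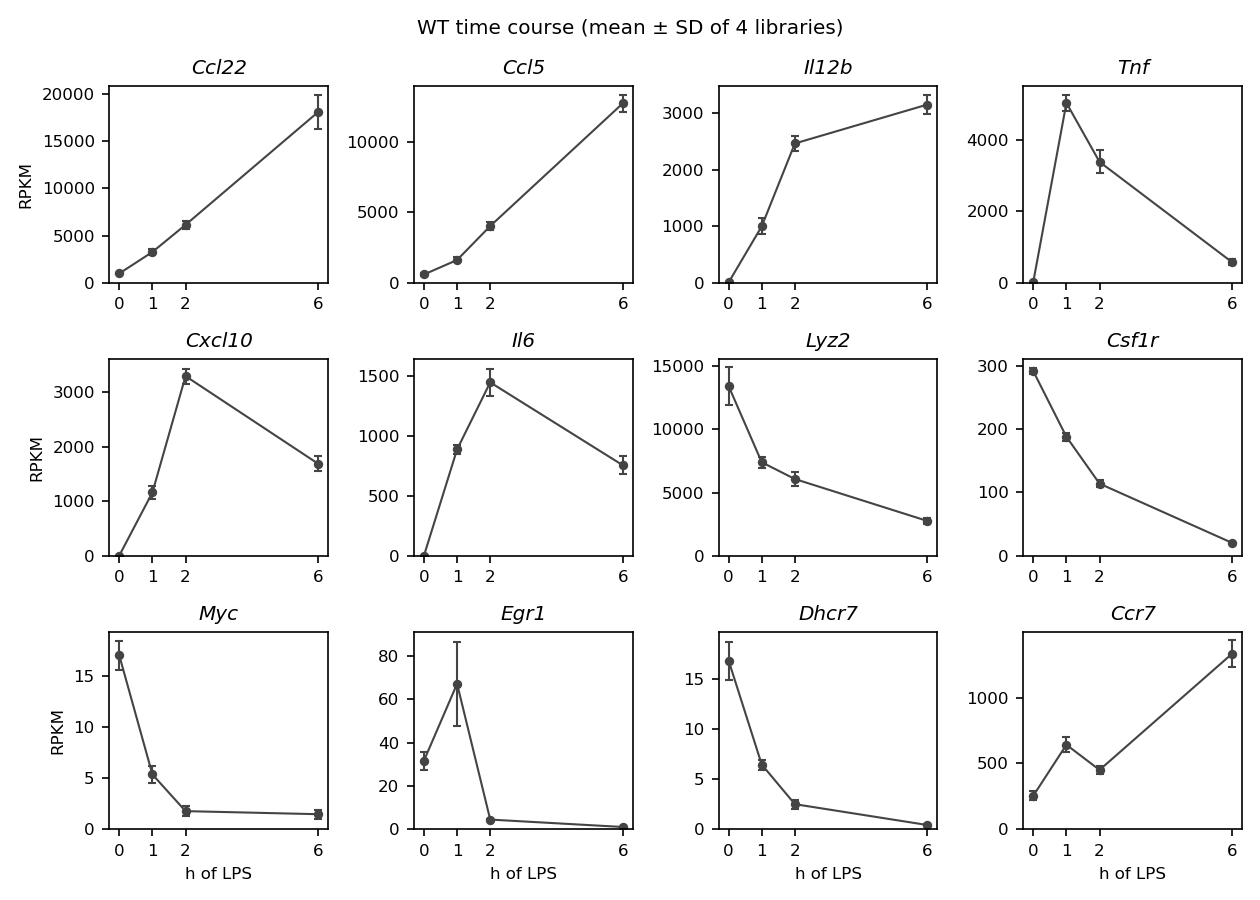
RPKM (y axes from 0, mean ± SD of 4 WT libraries) of 12 genes at 0, 1, 2 and 6 h of LPS (x axis). Ccl22, Ccl5, Il12b and Ccr7 are highest at 6 h, Tnf at 1 h, and Cxcl10 and Il6 at 2 h, while Lyz2, Csf1r, Myc and Dhcr7 have a lower mean at each later time.

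Beside Daglb and the genes named above, the lowest changes under the naming rule were those of Rab3il1, a Rab exchange factor (54.2 to 1.15 RPKM; change -5.08, -4.48 with scaling), Lpar6, a lysophosphatidic acid receptor (17.8 to 0.514 RPKM), Dok2, an adaptor of tyrosine kinase signals (129.5 to 6.84 RPKM), and P2ry6, a receptor for UDP (45.6 to 2.22 RPKM). Genes that passed from near 0 to a clear level, or the reverse, were few. In 43 of the 10727 tested genes all 4 libraries at 0 h were under 1 RPKM and all 4 at 6 h at 5 RPKM or more, and in 91 the reverse held. These counts are without scaling and were not made with it, so the balance between them depends on the scaling to an unknown extent. Among the first were Ifnb1, Il12a, Il23a, Cxcl9, Cxcl11 and Edn1, endothelin 1 (0.238 to 12.8 RPKM). Among the second were Fads1, the helicase and nuclease gene Dna2 (19.1 to 0.541 RPKM), the protease-activated receptor gene F2rl2 (18.3 to 0.533 RPKM) and Cd93 (19.2 to 0.798 RPKM). Edn1 and Cd93 were picked from these sets after their values were seen.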

How the data were processed

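RNA of 8 WT libraries was compared, 4 at 0 h and 4 at 6 h of LPS. Per the labels, RNA was extracted with Trizol and libraries were made with the TruSeq RNA kit. The submitters' processing notes name CASAVA 1.8.2 and mm9. The aligner settings, the annotation and the way reads were assigned to genes are not given in the sources used here, and the counting is not stated to use strand, so a gene and its antisense partner cannot be told apart.

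The deposited tables hold 1 library each, with 22216 genes and 92 spike-in controls. The authors deposited RPKM and a second column of whole numbers, which the values show to be a signal of aligned bases: within a gene its ratio to RPKM was constant across libraries up to 1 factor per library (largest relative deviation 1.04e-06 over 4460 genes). That signal gave the depth only. Read counts were not recovered, which leaves the spread between libraries as the measure of precision. Spike-in controls took 0.252% ± 0.0519 of the bases at 0 h and 0.187% ± 0.0401 at 6 h (exact two-sided permutation p = 0.0857) and were left out of tests and scaling. A total of 9 symbols stood on 23 entries, each kept as its own gene.

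The test, for genes reaching 1 RPKM in 4 or more of the 8 libraries, was run on log2(RPKM + 0.5) with limma 3.58.1 in R 4.3.3, with an intensity trend (6 residual and 4.9 prior degrees of freedom). All 10727 genes entered the Benjamini-Hochberg adjustment of the two-sided p-values, and an adjusted p below 0.05 was a call. The 6 h against 2 h contrast was fitted to the 16 WT libraries (12 residual and 5.15 prior degrees of freedom). The fit was checked on simulated data. Alternatives covered scaling, pseudocount, filter, libraries in the fit, the replicate number, the trend and each library left out.

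The gene lists, their members and the naming rule were chosen with earlier results of these data known. Lists are described by counts and medians, with no test of a list. The rule named the 15 most abundant genes of each group, the 15 highest and 15 lowest changes among called genes without overlap and with at least 5 RPKM in the higher group, passing over uncharacterised loci, the 10 largest gains and losses of RPKM, up to 6 list members of smallest adjusted p, all members of 3 short lists (phagocyte oxidase, Langerhans cell, MHC class II) and members a statement needs. Some list members were not analysed here, and some genes that the rule covers are not reported here. Promoters came from RefSeq (GRCm38.p6), with 32851 windows of 27025 symbols.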

Additional observations from a re-analysis of the deposited data

Results flagged for a closer look

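Among 538 groups of 4 values that were looked at, over 264 of the genes named here and 5 library values, 26 had 1 library whose distance to the nearest other took up more than 0.829 of the group's range. Chance alone gives about 1 in 20 such groups. Replicate 1 at 0 h stood apart in Batf at 16.4 RPKM (others 12.8 to 13.4) and Il15ra at 7.72 RPKM (others 9.29 to 9.45). Replicate 2 at 0 h stood apart in Tgfbi at 294 RPKM (others 324 to 327) and Tmsb4x at 6699.6 RPKM (others 7123 to 7205). Replicate 3 at 0 h stood apart in Calr at 364 RPKM (others 430.2 to 438), Cd86 at 65.2 RPKM (others 51.9 to 54.1), Relb at 59.4 RPKM (others 44.3 to 46.6), Soat1 at 55.6 RPKM (others 60.6 to 61.4) and Tcfeb at 14.9 RPKM (others 17.1 to 17.5). Replicate 4 at 0 h stood apart in Il10 at 0.0701 RPKM (others 0 in each), Il12a at 0.0665 RPKM (others 0 in each), Il2ra at 10.7 RPKM (others 15.7 to 16.7) and Irf7 at 19.5 RPKM (others 18.1 to 18.2). Replicate 1 at 6 h stood apart in Cd207 at 2.57 RPKM (others 6.17 to 6.64). Replicate 2 at 6 h stood apart in Cyba at 361 RPKM (others 419 to 420.0), Lck at 3.22 RPKM (others 3.42 to 3.44) and Tapbp at 468 RPKM (others 514 to 523). Replicate 3 at 6 h stood apart in Daglb at 0.857 RPKM (others 0.539 to 0.564) and H2-Oa at 65.4 RPKM (others 50.8 to 52). Replicate 4 at 6 h stood apart in Cdkn1a at 924 RPKM (others 812 to 830.5), Hadh at 2.55 RPKM (others 3.07 to 3.13), Psap at 1659.7 RPKM (others 1825 to 1835), Sqle at 7.45 RPKM (others 5.77 to 6.04) and Tcfeb at 2.12 RPKM (others 2.78 to 2.81). Of the library values, replicate 3 at 6 h had 9581 genes at 1 RPKM or more against 9618 to 9623 in the others, and replicate 4 at 6 h had 1.48 Gb of aligned sequence against 1.65 to 1.68 Gb.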

How the results depend on the processing

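Scaling between libraries moved the counts furthest. Against 2051 genes higher and 7600 lower per library total, median-of-ratios scaling gave 4419 and 4449 and quantile normalization 3944 and 4727, so the share of calls that were higher went from 21.3% to 49.8% and 45.5%. Of 264 of the genes named here, 7 changed sign with median-of-ratios scaling: Eef1a1 (0.41), H2-DMb1 (0.0696), H2-DMb2 (0.13), H2-Ob (0.21), Ncf4 (0.31), Rac2 (0.39) and S100a9 (0.52). With quantile normalization 6 did: B2m (-0.20), Cd74 (-0.18), Fth1 (-0.22), H2-Aa (-0.11), Tmsb4x (-0.35) and Tnfrsf4 (0.14). No other alternative changed a sign among them. Tmsb4x lost its call when replicate 1 or 2 at 0 h or replicate 1, 3 or 4 at 6 h was left out, and Tmsb4x, Cd74 and H2-Aa lost theirs in the unfiltered fit; H2-Oa and Cenpe are the others that lost theirs when a library was left out. With all 32 libraries in the fit, 8 of the 264 lost their call, 5 of them MHC class II genes. In that fit 1624 genes were higher and 6615 lower, and the genes that differed between 6 h and 2 h numbered 5071 instead of 8288. In every dKO group a library stood apart in the number of genes at 1 RPKM or more. These were replicate 2 at 0 h (9908, others 10473 to 10536), at 1 h (9269, others 9803 to 9891) and at 2 h (10481, others 9242 to 9347). At 6 h it was replicate 4 (9188, others 9312 to 9381). Whether these libraries caused the lost calls was not tested. The remaining settings kept the counts of calls within 1.5 times: pseudocounts of 0.1 and 1, no filter (2490 higher and 8747 lower of 16156), a filter at 5 RPKM (1736 and 5511 of 7986), all 16 WT libraries, no trend, and each library left out (1981 to 2042 higher and 7490 to 7592 lower). Of 1408 list counts under settings other than scaling, 17 moved by more than 1.5 times (7 with all 32 libraries, 7 with the filter at 5 RPKM, which tests fewer members, and 3 with a library left out), and of 176 under both scalings 47 did. The rise in the share of the 10 most abundant genes was 5.96 to 6.62 percentage points with each library left out and 7.71 for the 50 most abundant. The difference in the number of genes at 1 RPKM or more (6 h minus 0 h) was -1081, -446 with scaling and -1595 at 5 RPKM.

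Replicate numbers were not used as pairs: deviations of same-numbered libraries correlated by 0.181, 0.0859, 0.129 and 0.00921, not all above 0.1, and 1 of the 4 did not correlate best with its own number. A replicate block gave 2061 genes higher and 7597 lower. RPKM are shares of a library, so a change in RNA per cell cannot be seen here, and values near 0 rest on few reads.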

Other observations

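Several groups of genes outside the comparison above changed as well, and they are given as values. The receptors for growth factors and cytokines split: of 28 tested, 12 were called higher and 13 lower, beside 19.1% and 70.8% of all tested genes. With scaling the counts were 17 and 8, beside 41.2% and 41.5%. Il2ra, the α chain of the IL-2 receptor, went from 14.9 ± 2.89 to 106 ± 11.3 RPKM (change 2.80, 3.49 with scaling) and Il15ra is given above. Both receptors for TGF-β were lower, Tgfbr1 from 68.1 to 8.52 RPKM (change -2.93, -2.24 with scaling) and Tgfbr2 from 33.7 ± 2.7 to 2.57 ± 0.391 RPKM (change -3.48, -2.83 with scaling), as was their ligand Tgfb1. Ifngr1, a chain of the interferon γ receptor, went from 64.2 to 7.09 RPKM, while its partner Ifngr2 stood at 52.8 to 54.3 RPKM, which was not called without scaling. Il6ra, the receptor of the strongly raised Il6, went from 14.6 to 0.691 RPKM (change -3.66, -3.11 with scaling). The chains of the GM-CSF receptor, Csf2ra and Csf2rb, stood at 225 to 113 RPKM and 458 to 222 RPKM.

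Actin and adhesion genes moved in both directions, with 10 of 33 called higher and 19 lower, beside 19.1% and 70.8% of all tested genes. With scaling the counts were 22 and 10, beside 41.2% and 41.5%. Beside Fscn1, the integrin chains Itga5 (34.4 to 124 RPKM) and Itga4 (10.1 to 32.2 RPKM) and the GTPase gene Rhob (22.9 to 80.1 RPKM) were higher by both scalings. Myo1e (33.9 to 6.3 RPKM), Myo1f (146 to 29.8 RPKM), the membrane linker Ezr (134 to 28.4 RPKM) and Coro1c (86.2 to 21.6 RPKM) were lower by both. In iron handling, Tfrc, the transferrin receptor, went from 11.8 to 1.36 RPKM (change -2.72, -2.12 with scaling) and the ferrireductase gene Steap3 from 6.18 to 0.194 RPKM, against 21.8 to 240.1 RPKM for Lcn2, which sequesters bacterial iron carriers, and the rise of Hamp. Among redox genes Sod2, the mitochondrial superoxide dismutase, went from 31.7 to 99.6 RPKM and Txn1 from 190.2 to 498 RPKM, while Gclc and Gclm, the subunits of the enzyme that starts glutathione synthesis, went from 11.7 to 2.35 RPKM and from 32.9 to 8.09 RPKM.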
